A study of Homo sapiens with 6 samples.

Results

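A list of 37 genes known as targets, inhibitors or feedback regulators of the transcription factor p53 was followed in SEM::EGR3 against SEM::mock. The 37 genes were chosen by name, without a threshold on any measured value, but with earlier results of these data known. Of the 37 genes, 35 had a row among the 35410 genes of the expression table, matched by symbol. XPC-DT and RPS27L-DT had none and were not analysed here. SEM is a proB leukemia cell line carrying the KMT2A::AFF1 fusion. SEM::EGR3 carries a doxycycline-inducible EGR3, a zinc finger transcription factor of the early growth response family, and SEM::mock is labelled as the empty vector line. Both lines were treated with 1 µg/mL doxycycline for 48 h, so the agent is common to both groups, and RNA was sequenced in 3 biological replicates of each by MACE-Seq, which counts the 3′ ends of polyadenylated transcripts. The labels describe both lines as transfected with a vector, and whether a line is derived from a single clone was not given in the sources used here.

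p53 is a transcription factor that is kept at low levels by its E3 ubiquitin ligase MDM2 and the MDM2 relative MDM4. DNA damage kinases such as ATM and CHEK2, and the CDKN2A product p14ARF, relieve this inhibition, upon which p53 accumulates and activates genes for cell cycle arrest, DNA repair, metabolism and apoptosis. Several targets, among them MDM2, PPM1D and CCNG1, feed back on p53 itself. p53 is regulated to a large part at the protein level, and RNA counts measure neither the amount nor the activity of the protein. p53 targets matter in acute lymphoblastic leukemia because much of the response to cytotoxic drugs passes through them.

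The summed counts per library ranged from 5286115 to 6181388 in SEM::mock and from 7293092 to 15106018 in SEM::EGR3. As a check of the labels, EGR3 itself was counted 8, 10 and 6 times in SEM::mock versus 9768, 4952 and 5557 times in SEM::EGR3. The SEM::mock libraries lacked defining markers of the labelled proB cell type: 10 of 14 B lineage markers had at most 3 counts in each SEM::mock library and 5 of these had 0, with EBF1 and IGHM at 0 and PAX5 at 1, 1 and 2 counts. Of the 14 markers, 3 that were at 0 in SEM::mock had at most 3 counts in each SEM::EGR3 library too, so they do not separate the groups. The summed level of the 14 markers was 134 to 158 CPM (library-size scaled counts, normalized by the trimmed mean of M values, TMM) in SEM::mock and 678 to 710 CPM in SEM::EGR3. CD24 made up nearly all of the SEM::mock sum and was lower in SEM::EGR3 (144 and 23.5 CPM), opposite to the other 9 tested markers. The 13 markers without CD24 summed to 2.65 to 5.88 CPM in SEM::mock and 655 to 687 CPM in SEM::EGR3. Of 12 targets of the KMT2A fusion, 4 had at most 3 counts in each SEM::mock library and HOXA7 had 0, with summed levels of 165 to 191 CPM in SEM::mock against 1240 to 1320 CPM in SEM::EGR3. LMO2 made up most of the SEM::mock sum and was lower in SEM::EGR3 (110 and 32.0 CPM), opposite to the other 11 targets. Erythroid and megakaryocyte markers summed to 5210 to 5510 CPM in SEM::mock and 6340 to 6590 CPM in SEM::EGR3, and the erythroid factor GATA1 had 329, 347 and 332 CPM in SEM::mock and 285, 295 and 278 CPM in SEM::EGR3. Myeloid markers (9 of 10 with a row) summed to 351 to 367 CPM against 227 to 230 CPM, and T cell markers to 87.3 to 99.4 CPM against 82 to 90.4 CPM. These sums cover changes in opposite directions, with TRAC 61.5-fold and CEBPA 10.2-fold higher, and TRBC1 18.8-fold, MS4A3 11.6-fold and CD3D 9.51-fold lower in SEM::EGR3. The missing markers go against the label of the SEM::mock libraries. The level of the erythroid and megakaryocyte markers, GATA1 among them, goes against the proB label of both groups. The identity of the libraries of both groups is therefore in doubt, and each difference holds between the libraries as labelled. The part of these marker differences in the values of the p53 target genes was not tested. An effect of EGR3 and any other difference between the lines cannot be told apart in this design, and no library could be set aside, since the markers divide the groups as wholes. In bulk RNA, fewer cells of a type and less RNA per cell cannot be told apart either.

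p53 target genes moved in both directions. Of the 37 genes, 33 passed the filter on low counts and were tested, with 12 genes higher and 14 genes lower in SEM::EGR3 when called below an adjusted p of 0.05 (edgeR quasi-likelihood test, Benjamini-Hochberg adjustment over 15465 tested genes), while 7 were not called. The comparison was broad: 68.5% of all tested genes were called, 36.5% as higher and 32.0% as lower. These shares are the background for the counts per role and per list given below. Of the 33 p53 targets, 78.8% were called, 36.4% as higher, close to the share of all tested genes, and 42.4% as lower. By at least 2-fold, 7 p53 targets were higher (21.2%) and 6 were lower (18.2%), compared with 16.7% and 8.50% of all tested genes. The values of the 2 groups did not overlap for 26 of the 33 genes (78.8%), against 70.1% of all tested genes. The median log2 fold change was 0.03 over the 33 genes and 0.03 over all tested genes, and the median absolute log2 fold change was 0.76 and 0.46, respectively. The genes spanned log2 fold changes from -2.27 for TNFRSF10A to 6.55 for CYFIP2. The summed level of the 35 genes was 1720 to 1790 CPM in SEM::mock and 1940 to 2010 CPM in SEM::EGR3, of which GDF15 alone held a mean of 247 CPM and 785 CPM. The 2 untested genes, TNFRSF10C and SPATA18, had at most 3 counts in every library of both lines, and no fold was calculated for them. CYFIP2, TIGAR and PHLDA3 had at most 5 counts in each SEM::mock library and passed the filter through the SEM::EGR3 libraries alone, so their direction was not independent of the filter.

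**Figure D1:**
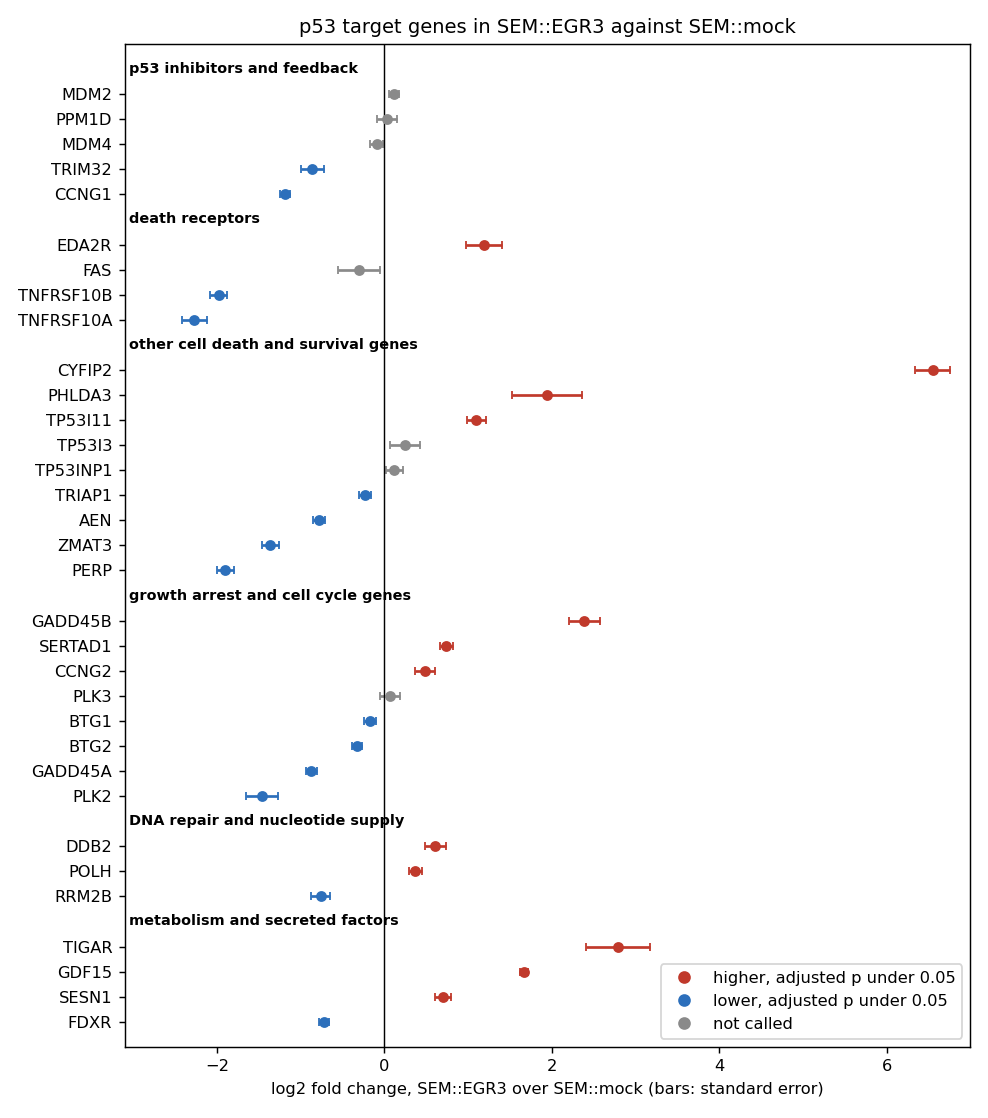
Log2 fold change of each of the 33 tested p53 target genes in SEM::EGR3 over SEM::mock, grouped by role, with bars for the standard error of the fit. Red points are genes called higher (12), blue points genes called lower (14) and grey points genes not called (7). Both directions occur in most roles, and CYFIP2 lies apart at 6.55.

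p53 binds response elements made of a pair of 10-base half-sites, and EGR factors bind GC-rich motifs, so the promoters were searched for both. RefSeq promoter windows (GRCh38.p14, 250 bases before to 50 bases after the annotated start) were found for 28 of the 37 genes by symbol, and the first window listed per gene was used. The EGR motif, searched as GCGTGGGCG or GCGGGGGCG on both strands, was present in 2 of 28 windows (7.1%), compared with 9.5% of 10342 windows of tested genes and 5.7% of all 27305 windows. The consensus p53 half-site was present in 3 of 28 windows (10.7%), compared with 5.2% and 6.5%, respectively. The half-site reads the same on both strands and was counted once. The 3 genes with a half-site, AEN, FDXR and PLK2, were all called lower, as were 42.4% of the tested p53 targets and 32.0% of all tested genes. Whether other genes with a half-site were called lower more often was not tested. The EGR motif was found in BTG2, which was called lower, and in GADD45B, which was called higher. The 5 matches are shown, because they are the only matches to either motif in the 28 windows, with the match in capitals and 45 bases on each side, 5′ to 3′ on the strand of the gene. The AEN stretch is chr15:88621261-88621360 (+), with the match 34 to 25 bases before the start. FDXR is chr17:74872951-74873050 (-), with the match 11 to 2 bases before the start, and PLK2 is chr5:58460164-58460263 (-), with the match 132 to 123 bases before the start. BTG2 is chr1:203305323-203305421 (+), with the match 151 to 143 bases before the start. GADD45B is chr19:2475923-2476021 (+), with the match 159 to 151 bases before the start and on the opposite strand, so its capitals are the complementary reading.
AEN: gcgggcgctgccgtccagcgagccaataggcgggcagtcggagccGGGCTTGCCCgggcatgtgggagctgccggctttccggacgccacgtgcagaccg
FDXR: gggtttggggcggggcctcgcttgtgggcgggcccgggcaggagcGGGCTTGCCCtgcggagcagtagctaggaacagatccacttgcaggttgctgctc
PLK2: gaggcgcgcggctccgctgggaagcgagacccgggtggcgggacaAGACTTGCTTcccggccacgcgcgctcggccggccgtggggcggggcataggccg
BTG2: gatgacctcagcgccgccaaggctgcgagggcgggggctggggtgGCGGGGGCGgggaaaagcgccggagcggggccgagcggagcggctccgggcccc
GADD45B: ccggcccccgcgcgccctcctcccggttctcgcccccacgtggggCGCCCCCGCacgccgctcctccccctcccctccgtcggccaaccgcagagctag
A match is a description of the sequence only, and binding of p53 or EGR3 was not tested here.

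Of 5 genes that restrain p53 or feed back on it, CCNG1 and TRIM32 were lower in SEM::EGR3, and MDM2, MDM4 and PPM1D were not called. MDM2, the E3 ligase that marks p53 for degradation and is itself a p53 target, had 108, 96.5 and 108 CPM in the SEM::mock libraries and 112, 116 and 111 CPM in the SEM::EGR3 libraries. The groups lay next to each other without overlap, but the difference was small and not called (log2 fold change 0.12 ± 0.06 (SE), adjusted p = 0.0887 by edgeR). It was called without normalization factors (0.20, adjusted p = 0.00714) and with a filter of at least 10 counts in every library (0.17, adjusted p = 0.0173). MDM4, which binds and blocks the transactivation domain of p53, had 70.2 ± 9.06 CPM and 65.4 ± 6.53 CPM (SD, n = 3 per group, SEM::mock first here and in the pairs of values that follow), and was not called (-0.09 ± 0.08, adjusted p = 0.362), although it was called lower without SEM::mock replicate 1 (-0.21, adjusted p = 0.026). PPM1D, the phosphatase WIP1 that resets the damage response, had 16.6 ± 2.33 CPM and 16.8 ± 0.367 CPM and was not called either (0.03 ± 0.12, adjusted p = 0.826).

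CCNG1 (ENSG00000113328, chr5:163437569-163446151), which encodes cyclin G1, a recruiter of a phosphatase to MDM2, had 185, 187 and 186 CPM in SEM::mock and 78.9, 78.3 and 87.3 CPM in SEM::EGR3. The SEM::EGR3 libraries were all below the SEM::mock libraries, with a log2 fold change of -1.19 ± 0.06 (adjusted p = 3.89e-15). TRIM32, another E3 ligase that acts on p53, was lower as well, with 14.8 CPM in SEM::mock and 8.16 CPM in SEM::EGR3 (-0.86 ± 0.14, adjusted p = 7.9e-06).

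Both signalling TRAIL receptors were lower in SEM::EGR3. TNFRSF10A (ENSG00000104689), which encodes death receptor DR4, had 18.6, 19.6 and 17.1 CPM in SEM::mock and 3.61, 4.45 and 3.65 CPM in SEM::EGR3. This was the largest decrease among the 33 tested genes, with a log2 fold change of -2.27 ± 0.15 (adjusted p = 1.72e-12) and no overlap between the groups. TNFRSF10B (ENSG00000120889), which encodes death receptor DR5, had 38.7, 40.0 and 38.0 CPM in SEM::mock and 9.42, 11.0 and 9.62 CPM in SEM::EGR3 (-1.98 ± 0.10, adjusted p = 1.01e-14). FAS, the receptor of FAS ligand, was measured at a few CPM only and was not called (4.30 ± 1.49 CPM and 3.48 ± 0.731 CPM, -0.30 ± 0.25, adjusted p = 0.296). EDA2R (ENSG00000131080, chrX:66595637-66639298), the receptor of ectodysplasin A2, moved in the other direction, from 2.47, 3.01 and 2.75 CPM to 6.51, 6.20 and 6.08 CPM (1.19 ± 0.21, adjusted p = 2.71e-05).

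The TRAIL decoy receptors, which bind the ligand without a complete death domain, were at the detection limit in SEM::mock. TNFRSF10C was counted 1, 0 and 1 times in SEM::mock versus 1, 1 and 2 times in SEM::EGR3. TNFRSF10D, a p53 target outside the 37 genes, was counted 0, 0 and 1 times in SEM::mock versus 19, 12 and 25 times in SEM::EGR3, a ratio of 29.3 (95% counting interval 5.05 to 1180), and was not tested after the filter on low counts. The TRAIL receptor genes lie in a row on chromosome 8, the chromosome of EGR3, at gaps of 327 kb (TNFRSF10B), 409 kb (TNFRSF10C), 442 kb (TNFRSF10D) and 497 kb (TNFRSF10A) from the EGR3 gene (GENCODE release 29, GRCh38). The overexpressed EGR3 is the doxycycline-inducible copy, whereas these gaps are measured from the EGR3 gene on chromosome 8. Whether this neighbourhood has a part in the values was not tested.

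**Figure D2:**
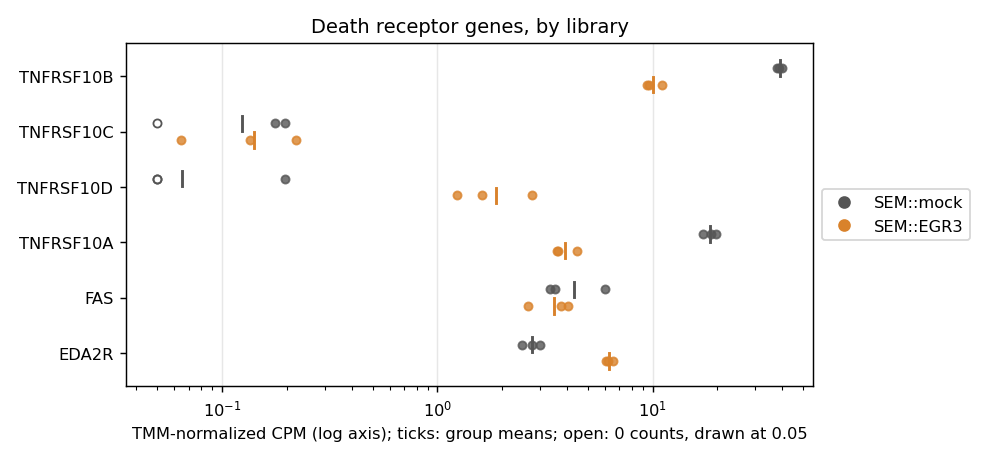
TMM-normalized CPM of the death receptor genes in each library on a logarithmic axis, with SEM::mock in grey and SEM::EGR3 in orange, ticks at the group means, and open symbols at 0.05 for libraries with 0 counts. TNFRSF10A and TNFRSF10B are lower in all 3 SEM::EGR3 libraries, EDA2R is higher, FAS overlaps, and TNFRSF10C stays at or below 0.221 CPM.

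Among 10 further genes of cell death and survival, 9 were tested, of which 3 were higher and 4 lower. CYFIP2 (ENSG00000055163, chr5:157266079-157395595), a subunit of the actin-regulating WAVE complex that is induced by p53, was counted 5, 2 and 1 times in SEM::mock versus 713, 357 and 409 times in SEM::EGR3, which corresponds to 0.472 ± 0.364 CPM and 46.4 ± 1.49 CPM. It was all but silent in SEM::mock, and the ratio of the pooled counts was 96.7 (95% counting interval 49.0 to 224). The fitted log2 fold change was 6.55 ± 0.21 (adjusted p = 5.26e-19), and without SEM::mock replicate 1, which held 5 of the 8 counts, it was 7.33. PHLDA3, a pleckstrin homology protein that restrains AKT, was low in both lines (ENSG00000174307, chr1:201464383-201469237), with counts of 1, 5 and 4 in SEM::mock versus 41, 18 and 16 in SEM::EGR3. It was higher in all SEM::EGR3 libraries in normalized terms, with a ratio of 3.92 (95% counting interval 2.02 to 8.52, log2 fold change 1.94 ± 0.42, adjusted p = 2.45e-04). TP53I11 (ENSG00000175274, chr11:44885903-44951306), also called PIG11, had 13.4, 17.3 and 16.1 CPM in SEM::mock and 35.4, 32.1 and 31.9 CPM in SEM::EGR3 (1.10 ± 0.11, adjusted p = 1.65e-09).

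PERP and ZMAT3 were the genes of this role that were lower by more than 2-fold. PERP (ENSG00000112378, chr6:138088505-138107511), a membrane protein of desmosomes and an effector of p53-dependent apoptosis, had 41.2, 39.2 and 42.9 CPM in SEM::mock and 11.6, 10.5 and 10.5 CPM in SEM::EGR3 (-1.90 ± 0.10, adjusted p = 1.12e-14). ZMAT3 (ENSG00000172667, chr3:179017223-179072279), an RNA-binding regulator of splicing, had 31.8, 32.5 and 31.6 CPM and 13.1, 11.2 and 12.7 CPM (-1.36 ± 0.10, adjusted p = 1.6e-11). Neither gene had overlapping groups. AEN, an apoptosis-enhancing nuclease, was lower by less than 2-fold (92.7 CPM and 54.4 CPM, -0.78 ± 0.07, adjusted p = 6.87e-10). TRIAP1, an inhibitor of apoptosis with a role in mitochondrial lipid transfer, was only slightly lower (77.5 CPM and 66.6 CPM, -0.23 ± 0.07, adjusted p = 0.00449), and the call did not survive omission of normalization factors (-0.15, adjusted p = 0.0538) or of SEM::EGR3 replicate 1 (-0.17, adjusted p = 0.0551). TP53INP1, a stress-induced nuclear protein, and TP53I3, a quinone oxidoreductase, were not called (0.12 ± 0.10, adjusted p = 0.30, and 0.25 ± 0.18, adjusted p = 0.214). SPATA18, a regulator of mitochondrial quality, had 1 count in 1 SEM::EGR3 library and 0 in the other 5 libraries.

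The genes of growth arrest and the cell cycle divided into 3 higher, 4 lower and 1 not called. GADD45B and GADD45A, both of which encode small stress sensors that act on kinases of the MAPK pathway, moved in opposite directions. GADD45B (ENSG00000099860, chr19:2476122-2478259), whose promoter stretch with the EGR motif is shown above, had 3.53, 2.85 and 2.94 CPM in SEM::mock and 18.4, 14.4 and 15.4 CPM in SEM::EGR3. Every SEM::EGR3 library was above every SEM::mock library (2.39 ± 0.18, adjusted p = 2.3e-11). GADD45A fell from 186 CPM to 102 CPM (-0.87 ± 0.06, adjusted p = 1.24e-12). The third relative, GADD45G, which is not among the 37 genes, was higher, with 2.40 ± 0.134 CPM in SEM::mock and 10.6 ± 0.858 CPM in SEM::EGR3 (2.13 ± 0.20, adjusted p = 1.14e-09).

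PLK2 (ENSG00000145632, chr5:58453982-58460260), a kinase of the polo family with a p53 half-site in its promoter window, had 9.19, 16.7 and 13.5 CPM in SEM::mock and 5.35, 4.31 and 4.31 CPM in SEM::EGR3. The SEM::mock libraries varied among themselves but stayed above the SEM::EGR3 libraries (-1.46 ± 0.19, adjusted p = 2.82e-07). Its relative PLK3 was not called (15.4 ± 1.86 CPM and 16.1 ± 0.993 CPM, 0.07 ± 0.12, adjusted p = 0.647). BTG2, an antiproliferative cofactor of mRNA deadenylation that also has the EGR motif in its promoter window, was lower in SEM::EGR3 (169 CPM and 135 CPM, -0.33 ± 0.06, adjusted p = 2.19e-05). BTG1, of the same family, passed the threshold only narrowly, with 92.9, 101 and 103 CPM in SEM::mock and 93.1, 81.6 and 89.0 CPM in SEM::EGR3 (-0.17 ± 0.07, adjusted p = 0.0283). Its groups overlapped, and the call was lost with DESeq2 (adjusted p = 0.0664). Omission of SEM::mock replicate 2 or 3 also ended the call (adjusted p = 0.062 and 0.0787), as did omission of SEM::EGR3 replicate 2 or 3 (adjusted p = 0.13 and 0.0552). SERTAD1, a CDK4-binding coactivator of E2F, and CCNG2, an atypical cyclin of quiescent cells, were higher by less than 2-fold (0.74 ± 0.08, adjusted p = 1.69e-08, and 0.49 ± 0.12, adjusted p = 8.23e-04).

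**Figure D3:**
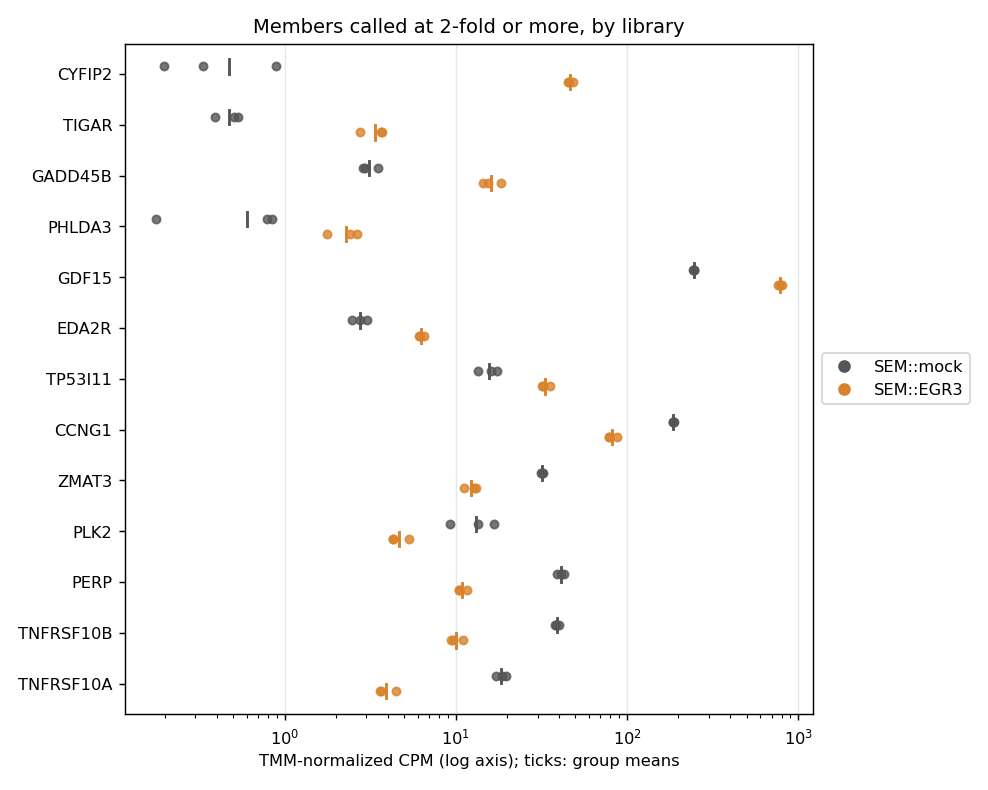
TMM-normalized CPM of the 13 p53 target genes called at 2-fold or more, in each of the 3 SEM::mock (grey) and 3 SEM::EGR3 (orange) libraries on a logarithmic axis, with ticks at the group means. The 7 upper genes are higher and the 6 lower genes are lower in SEM::EGR3, without overlap of the groups.

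The 3 tested genes of DNA repair and nucleotide supply changed by less than 2-fold. DDB2, the damage-binding subunit that starts global nucleotide excision repair, was higher (11.7 ± 1.09 CPM and 18.0 ± 1.94 CPM, 0.61 ± 0.13, adjusted p = 2.03e-04). POLH, the translesion DNA polymerase eta, was higher as well (33.5 ± 2.66 CPM and 43.2 ± 1.84 CPM, 0.37 ± 0.08, adjusted p = 3.45e-04). RRM2B, the p53-inducible small subunit of ribonucleotide reductase, was lower (23.4 CPM and 14 CPM, -0.76 ± 0.11, adjusted p = 1.41e-06).

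Of 4 genes of metabolism and secreted factors, 3 were higher and 1 was lower. GDF15 (ENSG00000130513, chr19:18374731-18389176), a secreted stress cytokine of the TGF-beta superfamily, had 248, 244 and 248 CPM in SEM::mock and 762, 787 and 807 CPM in SEM::EGR3. The libraries of each line lay close together, and the log2 fold change was 1.67 ± 0.05 (adjusted p = 3.1e-19). TIGAR (ENSG00000078237, chr12:4307763-4354593), a fructose bisphosphatase that lowers glycolytic flux, was counted 3, 3 and 2 times in SEM::mock versus 57, 27 and 25 times in SEM::EGR3. It was at the detection limit in SEM::mock, with a ratio of 7.13 (95% counting interval 3.49 to 16.9, log2 fold change 2.79 ± 0.38, adjusted p = 5.79e-07). SESN1, a sestrin that inhibits mTORC1, was higher by less than 2-fold (16.2 CPM and 26.6 CPM, 0.70 ± 0.10, adjusted p = 1.85e-06). Its relative SESN2, outside the 37 genes, was lower (77.2 ± 3.17 CPM and 34.9 ± 2.14 CPM, -1.16 ± 0.07, adjusted p = 4.39e-13). FDXR, the mitochondrial ferredoxin reductase with a half-site directly before its RefSeq start, was lower (135 CPM and 83.0 CPM, -0.72 ± 0.06, adjusted p = 5.06e-10).

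Paralogs of the p53 target genes were compared because members of 1 family can differ in direction and, where sequences are alike, can share reads. Of 19 paralogs, 16 were tested, of which 8 were higher and 5 lower, with a median log2 fold change of 0.12. Among all tested genes, 36.5% were called higher and 32.0% lower, with a median of 0.03. PHLDA1 and PHLDA2 were lower in SEM::EGR3 (-1.78 ± 0.07, adjusted p = 3.87e-17, and -1.93 ± 0.08, adjusted p = 4.02e-16), whereas PHLDA3 was higher. The GADD45, sestrin and PHLDA families each held members of either sign.

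Of 24 genes of the p53 family and its upstream regulators, 23 were tested, of which 7 were higher, 5 lower and 11 not called, with a median log2 fold change of -0.07. The shares of this list called were below those of all tested genes in both directions. CDKN2A, which encodes p16INK4A and the MDM2 inhibitor p14ARF, was not counted in any SEM::mock library (0 counts), against 2356, 1127 and 1357 counts in SEM::EGR3. At 151 ± 1.10 CPM it was at least 280-fold higher, against a floor of 3 counts per library. Both CDKN2A products share their 3′ exons, so 3′ end counts do not tell them apart. PPP1R13B, the p53 cofactor ASPP1, was counted 1, 0 and 1 times in SEM::mock versus 213, 101 and 148 times in SEM::EGR3 (ratio 121, 95% counting interval 33.3 to 1000). CDKN2A and PPP1R13B passed the filter on low counts through the SEM::EGR3 libraries alone, so their direction was not independent of it. CHEK2, a damage kinase that phosphorylates p53, was higher by 1.11 ± 0.10 on the log2 scale (adjusted p = 3.42e-10).

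**Figure D4:**
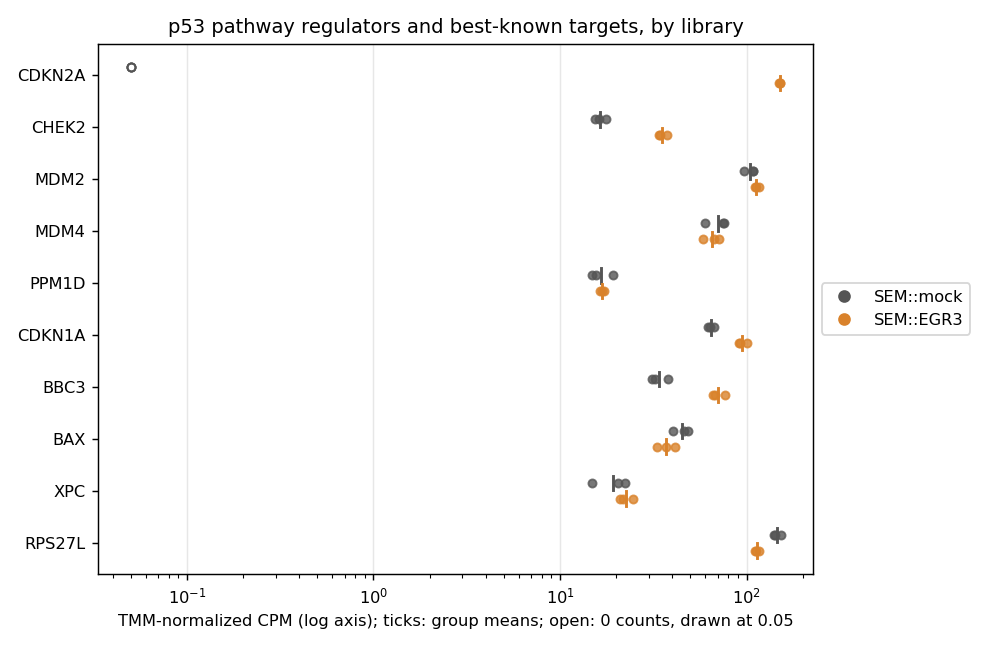
TMM-normalized CPM of the pathway regulators CDKN2A, CHEK2, MDM2, MDM4 and PPM1D and of 5 well-known targets in each library on a logarithmic axis, with SEM::mock in grey and SEM::EGR3 in orange, ticks at the group means and open symbols at 0.05 for libraries with 0 counts. CDKN2A has 0 counts in SEM::mock and 151 CPM in SEM::EGR3, while MDM2, MDM4 and PPM1D are within 0.12 on the log2 scale.

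The best-known p53 targets outside the 37 genes did not move as 1 group either. CDKN1A, the cyclin-dependent kinase inhibitor p21, had 62.2, 66.8 and 63.7 CPM in SEM::mock and 92.8, 91.5 and 100 CPM in SEM::EGR3 (0.56 ± 0.07, adjusted p = 4.58e-08). BBC3, the proapoptotic BH3-only protein PUMA, was higher (33.8 ± 3.70 CPM and 70.3 ± 5.43 CPM, 1.05 ± 0.08, adjusted p = 5.13e-11). BAX, the pore-forming effector of apoptosis, was lower (45 ± 4.28 CPM and 37.1 ± 4.24 CPM, -0.30 ± 0.09, adjusted p = 0.00599), but not without SEM::EGR3 replicate 1 (-0.19, adjusted p = 0.0824). RPS27L, the ribosomal protein gene whose divergent transcript is listed but had no row, was lower (146 CPM and 113 CPM, -0.37 ± 0.06, adjusted p = 4.18e-06). XPC, the damage recognition factor next to XPC-DT, was not called (19.2 ± 3.82 CPM and 22.5 ± 1.91 CPM, 0.23 ± 0.12, adjusted p = 0.102), but was called higher without SEM::mock replicate 1 (0.34, adjusted p = 0.0308).

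Of 30 other p53 targets, 25 were tested, of which 6 were higher, 14 lower and 5 not called, with a median log2 fold change of -0.37. For all tested genes the shares were 36.5% higher and 32.0% lower, and the median was 0.03. THBS1, an antiangiogenic matrix protein (-1.72 ± 0.12, adjusted p = 7.52e-12), and DRAM1, a lysosomal regulator of autophagy (-1.39 ± 0.13, adjusted p = 1.39e-09), were lower, and ABHD4, a lipase, was higher (1.26 ± 0.11, adjusted p = 2.8e-10). Genes that p53 represses through p21 and the DREAM complex were examined as well. Of 20 such cell cycle genes, all were tested, and 7 were higher, 4 lower and 9 not called, with a median log2 fold change of 0.06 and none past 2-fold. The same shares of all tested genes apply here, with 16.7% higher and 8.50% lower by at least 2-fold. KIF20A, a mitotic kinesin (0.96 ± 0.09), AURKB, a mitotic kinase (0.71 ± 0.07), and CDC20, an activator of the anaphase-promoting complex (0.67 ± 0.06), were higher, and BUB1, a spindle checkpoint kinase, was lower (-0.67 ± 0.06).

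**Figure D5:**
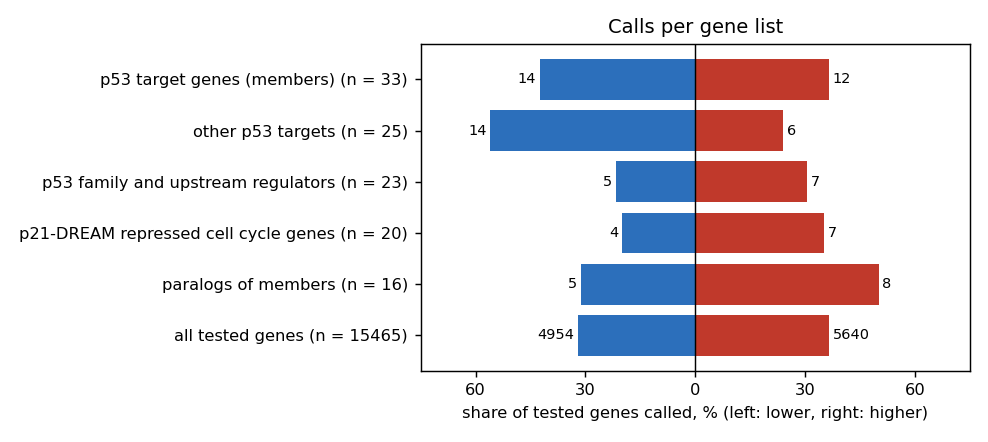
Share of tested genes called lower (blue, left) and higher (red, right) in SEM::EGR3 for each gene list, with the number of genes beside each bar and all 15465 tested genes at the bottom. The 33 p53 target genes had 14 lower and 12 higher calls, and the 25 other p53 targets had 14 lower and 6 higher.

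Some of these counts could include reads of neighbours. Exons of 14 of the 35 genes overlap exons of another GENCODE gene, on the opposite strand for 12 of them. Among these are CYFIP2, TNFRSF10A, TNFRSF10B and TP53I11. Opposite-strand overlaps also hold for genes named from the other lists, among them CDKN2A, PPP1R13B, CHEK2, CDKN1A, BBC3, XPC, THBS1, DRAM1, ABHD4, PHLDA1 and KIF20A. The strand setting of the counting was not given in the sources used here, so reads of such pairs cannot be told apart.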

How the data were processed

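RNA of 6 libraries, 3 of SEM::mock and 3 of SEM::EGR3, was measured by MACE-Seq. The authors deposited raw whole-number counts per gene and library. The submitters' processing notes name bcl2fastq, Bowtie2, HTSeq and the build GRCh38, without versions. The column headings spell ERG3, which was read as EGR3. Deposited scaled values and the authors' own fold changes and p-values were not used, and 0 columns of per-sample counts were left unused. Groups and replicate numbers were taken from the labels.

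Counts were filtered with filterByExpr, TMM-normalized and tested with glmQLFit and glmQLFTest of edgeR 4.0.16 in R 4.3.3, over all 6 libraries without covariates, with Benjamini-Hochberg adjustment over 15465 genes. SE is the log2 fold change divided by the root of F. Genes were called at an adjusted p under 0.05. Counting intervals are exact at 95%, and intervals and floors (3 counts) cover counting error only. Alternatives were DESeq2 1.42.0, other normalizations and filters, a replicate block and the omission of each library. The procedure was also run on simulated counts in which few genes changed. Most tested genes were called in the real data, so that run does not vouch for these calls. Replicates of a line differed by more than counting noise (chi-square per degree of freedom 1.71 to 3.12). Whether replicates came from separate cultures is known only from the label of biological replicates, and p-values measure the spread between these libraries. GENCODE release 29 (GRCh38) gave positions and exons (97% of the table's identifiers matched), and RefSeq gave promoters. TMM-normalized CPM are counts scaled to library size.

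The genes and lists were chosen with earlier results of these data known, so their selection supports nothing. Genes called at 2-fold or more are given by library, and others by role. Of the other lists, up to 4 called genes with the largest change and a mean of at least 100 counts are named, besides CDKN1A, BAX, BBC3, XPC and RPS27L. A further gene under this rule is not reported here. EGR3, GATA1, TNFRSF10D, PAX5, EBF1, IGHM, HOXA7, LMO2, CD24, TRAC, TRBC1, CD3D, CEBPA, MS4A3, CCNG2 and PLK3 were named after their values were seen.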

Additional observations from a re-analysis of the deposited data

How the results depend on the processing

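The 12 higher and 14 lower p53 target genes became 7 and 6 when at least a 2-fold change was also required. Across the other alternatives the higher calls ranged from 10 to 13 and the lower calls from 12 to 15, and the filter of at least 10 counts in every library left 30 of the genes to test. The 2-fold requirement ended 13 of the 26 calls. Leaving that requirement aside, 26 of 33 tested genes kept their side of the threshold and their direction in each alternative that held them, and 0 called genes reversed. CYFIP2, PHLDA3 and TIGAR were not held by the filter of at least 10 counts. BTG1 and TRIAP1 lost their calls, and MDM2 and MDM4 gained one, in the alternatives given with them above, and BTG1 also without normalization factors (adjusted p = 0.244) and with the filter of at least 10 counts (0.124). With the omission of single libraries, the uncalled log2 fold changes crossed 0 for PPM1D (-0.05 to 0.13), FAS (-0.48 to 0.01) and PLK3 (-0.03 to 0.16). XPC was called higher without normalization factors (0.30, adjusted p = 0.0306). The cause of these changes was not tested. Without normalization factors the median of all genes moved from 0.03 to 0.11 and the share of higher calls from 53.2% to 59.4%. Depth limits TNFRSF10C, SPATA18, TIGAR, PHLDA3 and CYFIP2, which had few counts in SEM::mock.

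Same-numbered libraries did not deviate together (correlations -0.40, -0.295 and -0.132), so the numbers were not treated as pairs. With the replicate block, 12 p53 target genes were higher and 13 lower, and BTG1 was the call that was lost (-0.17, adjusted p = 0.0572).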
